A study of Mus musculus with 21 samples.

Results

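The keratin genes of hair and epidermis were taken as all genes of the skin count table whose symbol is Krt followed by a number and at most 1 letter. This pattern matched 54 genes. Krt6a, Krt6b, Krt16 and Krt17, the 4 keratins of wounded and hyperproliferative epidermis, were set apart, which left 50 genes of the 55487 in the table. By textbook assignment, 16 belonged to the hair shaft, 8 to the inner root sheath, 10 to the epidermis and 16 to other epithelia. Their levels were read in 9 skin libraries from untreated mice of 12 months of age; 12 inguinal lymph node libraries, from WT and *Ifnk* TG mice untreated or given UVB (250 mJ/cm2) with 3 in each group, are used for values only. WT skin (3 libraries) came from BALB/c mice. *Ifnk* TG mice carry extra *Ifnk*, the gene of the type I interferon IFNκ, under the keratin 14 promoter, which acts in basal keratinocytes; the line was made on C57BL/6 and backcrossed to BALB/c. Its skin was sampled as TG nonlesional (NL, 2 libraries) and TG lesional (L, 4 libraries). Lesions of the line are mostly facial or dorsal, and NL pieces were cut from dorsal skin and from sites matching those of lesions; the labels give neither site, sex nor mouse for a library. Libraries are therefore called replicates, and p-values measure the spread between them.

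Keratins are the intermediate filament proteins of epithelial cells. Each filament is built from pairs of an acidic type I and a basic type II keratin, and epithelia differ in the pairs they make: Krt5 with Krt14 in the basal layer of the epidermis, Krt1 with Krt10 above it, and hard, cysteine-rich hair keratins in the cortex and cuticle of the hair shaft. The inner root sheath, which moulds the growing hair, has its own set, Krt25 to Krt28 of type I and Krt71 to Krt74 of type II. Follicles make shaft and sheath keratins while a hair grows.

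The genes lie in 2 clusters on GRCm38. The 25 members on chromosome 11, from 99232761 to 100269871, are of type I. The 25 on chromosome 15, from 101347444 to 102032027, are of type II, apart from the type I gene Krt18. The 250 bases before the start are printed for 6 genes that the results below turn on, 2 per class. They are RefSeq windows on GRCm38.p6, minus strand, 5′ to 3′. Capitals mark TATAAA, the core of the TATA box, and CTTTGA, the core bound by LEF1 and TCF factors, on either strand; these motifs do not overlap each other in the windows shown.
Krt34, a hair shaft type I keratin, chr11:100041555-100041804: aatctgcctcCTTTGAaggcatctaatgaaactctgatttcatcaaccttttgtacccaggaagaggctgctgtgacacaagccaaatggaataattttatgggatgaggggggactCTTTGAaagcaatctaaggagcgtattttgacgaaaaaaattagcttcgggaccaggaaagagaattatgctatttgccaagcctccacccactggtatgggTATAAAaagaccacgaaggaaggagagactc
Krt31, a hair shaft type I keratin, chr11:100050552-100050801: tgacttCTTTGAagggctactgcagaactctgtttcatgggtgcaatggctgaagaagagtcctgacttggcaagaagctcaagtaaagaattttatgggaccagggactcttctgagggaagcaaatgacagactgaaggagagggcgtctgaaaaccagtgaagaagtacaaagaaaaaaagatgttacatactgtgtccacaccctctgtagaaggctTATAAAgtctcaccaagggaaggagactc
Krt25, an inner root sheath type I keratin, chr11:99322952-99323201: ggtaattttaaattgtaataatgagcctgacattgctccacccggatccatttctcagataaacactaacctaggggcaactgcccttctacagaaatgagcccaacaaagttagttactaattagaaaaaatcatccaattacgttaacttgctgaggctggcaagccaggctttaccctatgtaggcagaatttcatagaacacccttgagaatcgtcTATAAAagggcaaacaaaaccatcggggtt
Krt71, an inner root sheath type II keratin, chr15:101743098-101743347: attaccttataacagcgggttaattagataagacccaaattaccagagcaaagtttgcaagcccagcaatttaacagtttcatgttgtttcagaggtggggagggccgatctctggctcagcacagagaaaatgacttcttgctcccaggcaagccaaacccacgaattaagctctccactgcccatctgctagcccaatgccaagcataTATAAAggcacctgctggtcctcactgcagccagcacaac
Krt10, the suprabasal epidermal type I keratin, chr11:99389365-99389614: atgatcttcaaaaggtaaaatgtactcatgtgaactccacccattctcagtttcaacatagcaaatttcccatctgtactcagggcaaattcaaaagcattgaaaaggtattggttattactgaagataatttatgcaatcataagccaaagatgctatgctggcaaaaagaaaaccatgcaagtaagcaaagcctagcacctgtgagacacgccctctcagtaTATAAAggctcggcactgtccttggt
Krt5, the basal epidermal type II keratin, chr15:101712906-101713155: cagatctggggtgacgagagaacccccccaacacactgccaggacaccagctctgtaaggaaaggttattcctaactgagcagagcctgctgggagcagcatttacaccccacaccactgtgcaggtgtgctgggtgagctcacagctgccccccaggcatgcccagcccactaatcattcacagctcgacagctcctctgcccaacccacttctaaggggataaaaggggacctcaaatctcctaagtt

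The promoter table matched 36 of the 50 keratins. Hair shaft genes without a window included Krt33a, Krt35, Krt81, Krt83, Krt86 and Krt87, so the hair shaft counts below cover only part of that class. TATAAA stood in 7 of 7 inner root sheath windows, 6 of 9 hair shaft windows, 1 of 7 epidermal windows and 3 of 13 windows of the other keratins, against 12.4% of all 32851 windows of the table. On the gene's own strand and 20 to 40 bases before the start, it was present in 5 inner root sheath, 4 hair shaft, 1 epidermal (Krt10) and 3 other windows, against 1.99% of all windows. Counted from the GENCODE starts, the hair shaft windows were 2, and the other counts were the same. CTTTGA stood in 5 of 9 hair shaft windows and in 1 of 7 each of the inner root sheath and epidermal windows and 2 of 13 others, against 13.8% of all windows. The 5 hair shaft windows with CTTTGA were all of type I genes. In Krt31, Krt32, Krt33b and Krt34 a CTTTGA lay between 240 and 247 bases before the RefSeq start. Counted from the GENCODE start, that of Krt32 lay 290 bases before it, and the others did not move. These are matches of exact letters, and no binding was measured. Near spellings, such as tatataag in the epidermal Krt2 and the hair shaft Krt36 windows, were not counted. A window without TATAAA may therefore still hold a TATA box.

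*Ifnk* itself had 0 counts in the 3 WT libraries, 6 and 0 in NL, and 14, 11, 5 and 8 in L, so that the library labelled NL replicate 3 held no *Ifnk* read. Totals ran from 40499078 to 56511276 counts per skin library, and 3 counts, the limit a count of 0 allows, are 5.31e-06 to 7.41e-06% of a library, for counting error only. Levels are given in CPM, the counts scaled to library size by TMM, and levels of different genes are compared as CPM per kb of transcript. No pair of libraries within a group agreed within sampling noise (lowest chi-square per degree of freedom 45.8).

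Among the 50 keratins, Krt88 had 0 counts in all 9 skin libraries, and Krt12, Krt13 and Krt76 fell below the filter on low counts, which left 46 tested. Keratins together held 1.39% ± 0.15 (SD, n = 3) of the counts in WT, 2.59% ± 0.26 (n = 2) in NL and 3.73% ± 0.44 (n = 4) in L skin. Epidermal keratins made 95.4% ± 0.44 of the keratin CPM per kb in WT and 95.7% ± 0.35 in NL skin. In the L libraries this share was 76.5, 51.2, 51.2 and 25.2% in replicates 4 to 7, with hair shaft keratins at 7.86 to 24.3% and inner root sheath keratins at 10.5, 20.6, 28.7 and 46.4%. All 4 L libraries thus stood apart from all 5 others in the make-up of their keratins, and they also differed from each other.

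**Figure D1:**
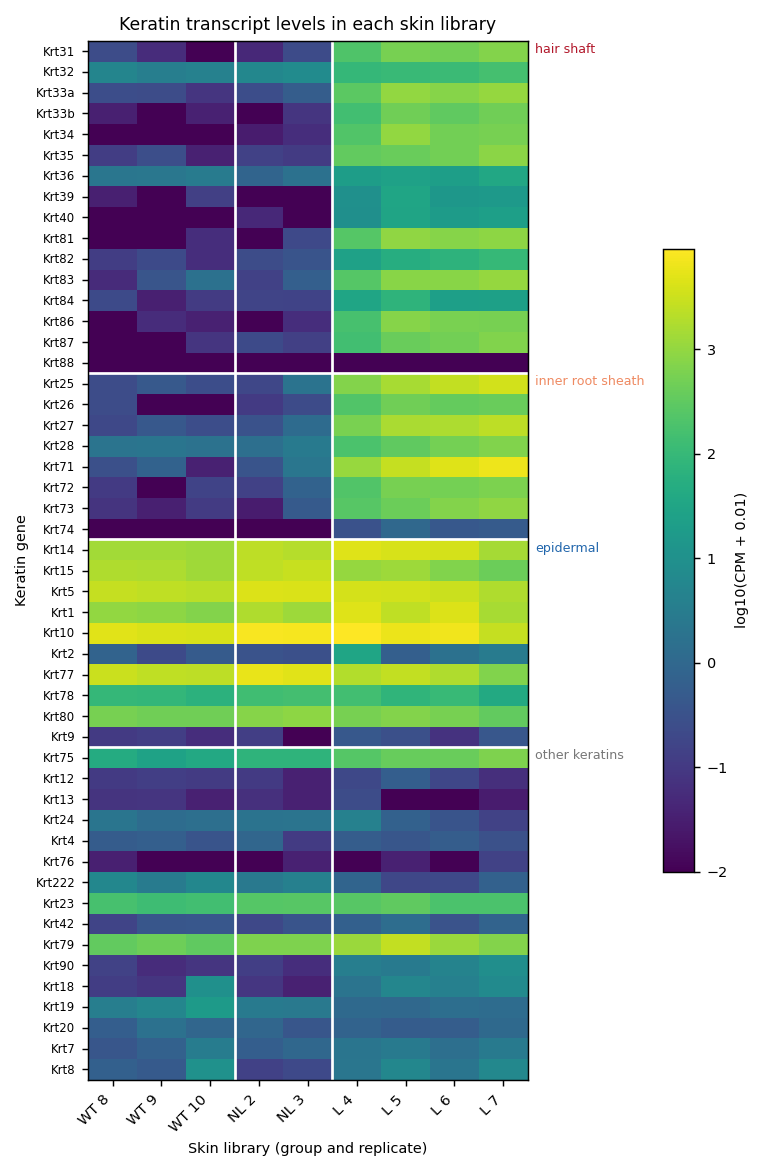
Level of each of the 50 keratins (rows, by class) in each of the 9 skin libraries (columns) as log10(CPM + 0.01). Hair shaft and inner root sheath rows are near the bottom of the scale in the WT and NL columns and high in all 4 L columns, except Krt88, which is at 0 throughout, while the main epidermal rows are high in every column.

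The first question was how lesional TG skin differed from WT skin. Hair shaft keratins were nearly silent in WT skin and abundant in L skin: their summed level was 8.19, 7.05 and 9.22 CPM in WT replicates 8, 9 and 10 and 2186, 6659, 5532 and 7111 CPM in L replicates 4, 5, 6 and 7. In edgeR's quasi-likelihood test across all 19101 tested genes, 15 of the 15 tested hair shaft keratins rose, against 23.0% of all tested genes called higher, with a median log2 fold change of 11.98 (11.87 with genes at 0 in a group set to their lower bound) beside 0.06 for all genes. The smallest change was that of Krt36 (log2 3.43). Genes near 0 in WT and NL skin, such as Krt34 and Krt40, passed the filter on low counts only through the L libraries. For such genes being tested nearly fixed the direction, so the share called higher is a description only. Fewer cells of a type and less RNA per cell cannot be told apart in these bulk samples, here or for any keratin below.

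Krt33a, a type I keratin of the hair cortex, had 11, 10 and 3 counts in the WT libraries, 13 and 23 in NL, and 15660, 40810, 34825 and 57845 in L, that is 0.19 ± 0.10 CPM (SD, n = 3) in WT and 775 ± 349 CPM (n = 4) in L skin. It rose by 11.98 ± 0.79 (SE) on the log2 scale (edgeR adjusted p = 6.7e-05). No L library overlapped a WT or NL library, and the same held for every tested hair shaft keratin. Of all 19101 tested genes, 4957 (26.0%) were higher without overlap in L over WT skin and 4718 in L over NL skin. The limit that the filter on low counts sets holds for this count too.
Krt83, a type II keratin of the cortex, had 2, 15 and 66 counts in WT, 7 and 25 in NL, and 13187, 32716, 37256 and 58010 in L skin. Its log2 fold change was 10.08 ± 1.28 (adjusted p = 0.000754).
Krt81, a cortical type II keratin, had 0, 0 and 2 counts in WT, 0 and 8 in NL, and 13767, 39137, 34271 and 48505 in L skin. On 2 WT counts in all, the ratio of L to WT was 43700 (95% counting interval 12100 to 361000), and the call had an adjusted p of 0.00013.
Krt34, a type I hair keratin whose upstream sequence is printed above, was at 0 in all 3 WT libraries, at 1 and 2 counts in NL, and at 12157, 40151, 22769 and 31190 in L skin. Against a floor of 3 counts in each WT library, its level in the lesions was at least 7981-fold higher (adjusted p = 0.000217).

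Of the remaining hair shaft keratins, Krt31, Krt33b, Krt35, Krt86 and Krt87 reached 350 to 521 mean CPM in L skin from less than 1 CPM in WT and NL skin. The cuticle keratins Krt32 and Krt82, which sheathe the shaft, reached 120 ± 26.9 and 62.7 ± 31.6 CPM. Krt32 and Krt36 had 148 to 221 and 94 to 119 counts in the WT libraries, whereas no other hair shaft keratin exceeded 66 there. Krt39, Krt40 and Krt84 were low in L skin, at 18.3, 20.4 and 38.5 mean CPM. Krt40 was at 0 in WT skin and at least 286-fold higher in L skin. On transcripts of known length, hair shaft type I per type II in L skin was 1.81, 1.37, 1.16 and 1.38 in replicates 4 to 7. Krt85, a type II hair shaft keratin by the same textbook assignment, was not among the 50 genes under that symbol. The type II sum therefore lacks it. Some of these genes are near-identical: 16.5% of the 151-base windows of Krt81 also occur in Krt86 or Krt87, 14.3% of those of Krt86 in Krt81, and 9.9, 9.5 and 6.3% of those of Krt34, Krt33a and Krt31 in one another. How their reads were divided is therefore uncertain, whereas the sum over the class is not affected by division among its members.

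Inner root sheath keratins followed the same pattern with a higher peak. Their summed level was 3.01, 3.75 and 2.50 CPM in WT, 2.60 and 9.22 in NL, and 3293, 7613, 11062 and 15259 in L skin. All 8 rose in L over WT skin (median log2 fold change 12.46, range 7.71 to 13.37), and none had overlapping libraries, against 26.0% of tested genes higher without overlap. The 7.71 is the fitted value of Krt74, which was at 0 in WT skin, so that only a lower bound of 7.95-fold holds for it. Here too, genes near 0 in WT and NL skin, such as Krt74, passed the filter only through the L libraries. In every L library the sheath keratins outweighed the shaft keratins among the 50 genes, at 1.34, 1.03, 1.79 and 1.91 times their CPM per kb. The shaft sum lacks Krt85.

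Krt71, the main type II keratin of the sheath, had 12, 32 and 1 counts in WT, 18 and 87 in NL, and 60196, 110855, 212060 and 366754 in L skin. In L skin it reached 3776 ± 2386 CPM (SD, n = 4), and per kb its mean of 1728 CPM stood beside 2047 for Krt14 and 1405 for Krt5. Its log2 fold change was 13.37 ± 1.51 (adjusted p = 0.000465).
Krt25, a type I sheath keratin, had 10, 19 and 10 counts in WT, 9 and 74 in NL, and 40321, 61618, 115723 and 202400 in L skin, with a log2 fold change of 12.73 ± 1.23 (adjusted p = 0.000261). Krt71 and Krt25 both had their lowest L value in replicate 4 and their highest in replicate 7.
Krt27, another type I sheath keratin, had 8, 18 and 10 counts in WT, 16 and 48 in NL, and 31327, 65494, 77273 and 130825 in L skin (log2 12.40 ± 0.91, adjusted p = 9.01e-05).
Krt73, a type II keratin of the sheath cuticle, had 3, 1 and 4 counts in WT, 1 and 20 in NL, and 13986, 17374, 32660 and 53570 in L skin (log2 13.13 ± 1.12, adjusted p = 0.000174). Each of these 4 genes had its highest count outside the lesions in the library NL replicate 3.
Krt28 was the sheath keratin with most counts in WT skin, 70 to 88, and had the lowest fitted fold change of the protein-coding members (log2 7.79). Krt74, annotated as a transcribed unitary pseudogene, had 0 counts in WT and NL skin and 17, 41, 20 and 28 in L skin, at least 7.95-fold more than WT. Sheath type I per type II in L skin was 1.29, 1.27, 1.04 and 1.04.

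**Figure D2:**
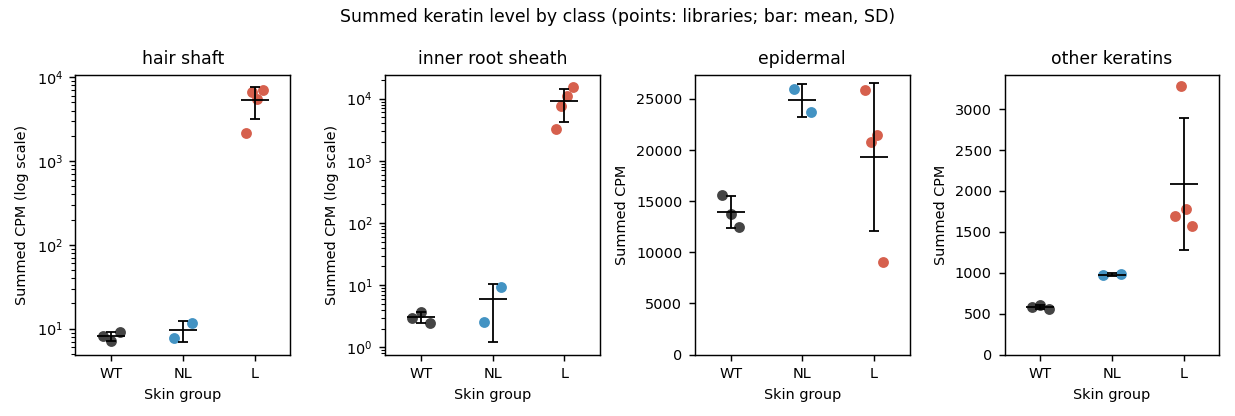
Summed CPM of the 4 keratin classes in WT (n = 3), NL (n = 2) and L skin (n = 4), with points for libraries and bars for the mean and SD; the first 2 panels have log axes. Hair shaft sums stay under 12 CPM and inner root sheath sums under 10 CPM outside the lesions, and none of the L sums is below 2186 CPM, while the L epidermal sums overlap those of WT and NL skin.

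The epidermal keratins were abundant in both groups. Their summed level was 15593, 13765 and 12430 CPM in WT and 25915, 20806, 21447 and 9020 CPM in L skin, so that the groups overlapped. In edgeR's test, 3 of 10 rose (Krt1, Krt14 and Krt2), against 23.0% of all tested genes, 1 fell (Krt15), against 20.2%, and 6 were not called. Both shares are near those over all genes. L replicate 4 was highest in this sum and lowest in both follicle sums, and L replicate 7 was the reverse.

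Krt14, the basal type I keratin whose promoter drives the transgene, was at 1338, 1374 and 1220 CPM in WT, 2381 and 1946 in NL, and 4664, 3931, 3895 and 1415 in L skin. It rose in L over WT by 1.41 ± 0.36 on the log2 scale (2.65-fold, adjusted p = 0.0131). L replicate 7 lay only just above WT, and without WT replicate 10 the adjusted p was 0.051.
Krt5, its type II partner, was at 2739, 2477 and 2228 CPM in WT, 4478 and 4228 in NL, and 3810, 3675, 3092 and 1773 in L skin. It did not pass the test (log2 0.32 ± 0.26, adjusted p = 0.349), although without L replicate 7 it did (0.51, adjusted p = 0.0269).
The proportion within the pair differed between L and WT skin: Krt14 per Krt5, in CPM per kb, was 0.63, 0.72 and 0.71 in WT, 0.69 and 0.60 in NL, and 1.58, 1.38, 1.63 and 1.03 in L skin, without overlap.
Krt15, a basal type I keratin also made by stem cells of the follicle bulge, went the other way. It was at 1822, 1719 and 1328 CPM in WT, 2520 and 2869 in NL, and 1046, 1235, 690 and 429 in L skin. It fell by 0.93 ± 0.32 on the log2 scale (adjusted p = 0.0447), with every L library under every WT library. The call ended without any one of the WT or NL libraries or L replicate 6, where the adjusted p was between 0.0623 and 0.123. Krt15 per Krt14 was 1.09 to 1.36 in WT and 0.18 to 0.31 in L skin.

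Above the basal layer, Krt1, the type II keratin of differentiating keratinocytes, was at 1002, 878 and 738 CPM in WT, 1824 and 1213 in NL, and 4589, 2482, 4414 and 1503 in L skin. It rose by 1.90 ± 0.40 on the log2 scale (3.72-fold, adjusted p = 0.00529), and all L libraries were above all WT libraries.
Krt10, its type I partner and the most abundant keratin of WT skin in CPM per kb, was at 5043, 4326 and 4055 CPM in WT, 8177 and 7421 in NL, and 9197, 6089, 6896 and 2825 in L skin. It did not pass (log2 0.48 ± 0.34, adjusted p = 0.284), but did without L replicate 7 (0.73, adjusted p = 0.0185). Krt10 per Krt1 was 5.78 to 6.44 in WT, 5.26 and 7.17 in NL and 1.83 to 2.88 in L skin.
Krt77, a further suprabasal type II keratin of mouse skin, was at 2988, 2432 and 2335 CPM in WT, 5718 and 5002 in NL, and 1879, 2594, 1805 and 692 in L skin (log2 -0.57 ± 0.37, adjusted p = 0.238). Krt77 per Krt1 was 2.32 to 2.65 in WT and 0.34 to 0.88 in L skin. The balance of suprabasal type II keratins thus differed between L and WT skin without overlap, while Krt77 alone was not called. These ratios were chosen after the values were seen and were not tested.
Krt80 and Krt78, both of differentiated layers, had log2 fold changes of 0.12 and 0.13 (adjusted p = 0.713 and 0.784).
Krt2, which mouse skin makes mainly in ear, tail and foot, was called higher (log2 4.23 ± 1.46, adjusted p = 0.0467) on overlapping libraries. Its counts were 34, 9 and 21 in WT, 17 and 11 in NL, and 1787, 25, 77 and 167 in L skin. Without L replicate 4 its log2 fold change was 1.82 (adjusted p = 0.0529), and the call also ended without L replicate 7 or any one of the WT and NL libraries (adjusted p = 0.0614 to 0.132). Krt9, the keratin of palms and soles, stayed at 23 counts or fewer in every library. The sum of suprabasal Krt1 and Krt10 over basal Krt5 and Krt14, in CPM per kb, was 1.25 to 1.38 in WT and 0.98 to 1.40 in L skin and overlapped.

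**Figure D3:**
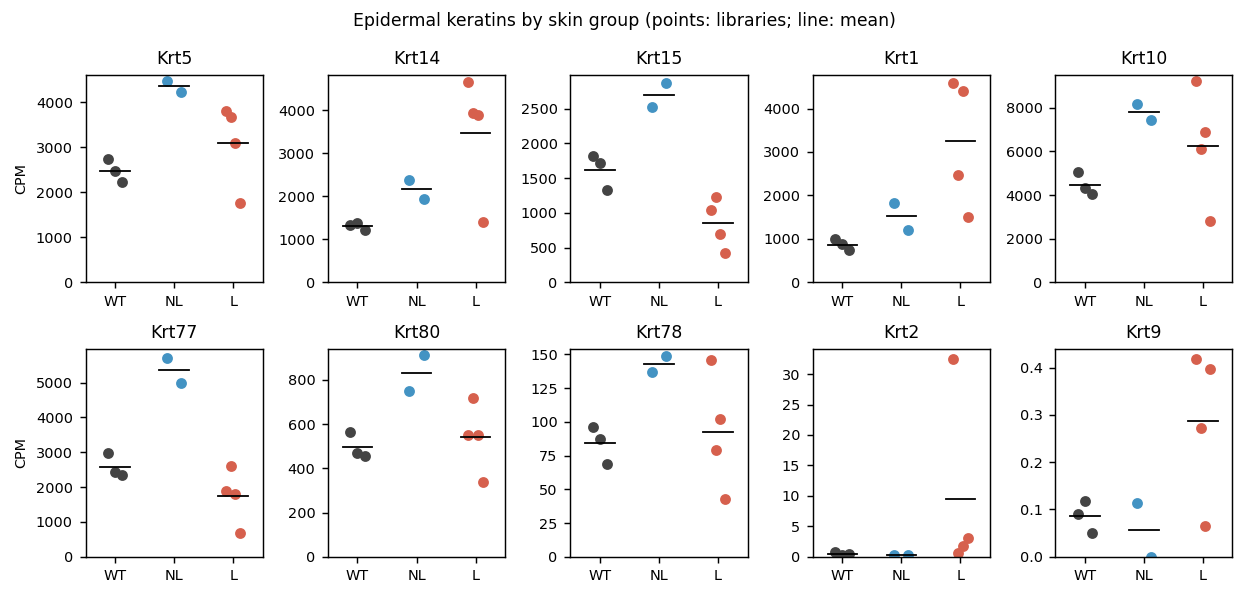
CPM of the 10 epidermal keratins in WT, NL and L skin, with points for libraries and lines for means; each panel has its own axis from 0. Krt14 and Krt1 are higher in L than in WT skin and Krt15 lower, and NL points lie above all WT points for 8 of the 10 genes.

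**Figure D4:**
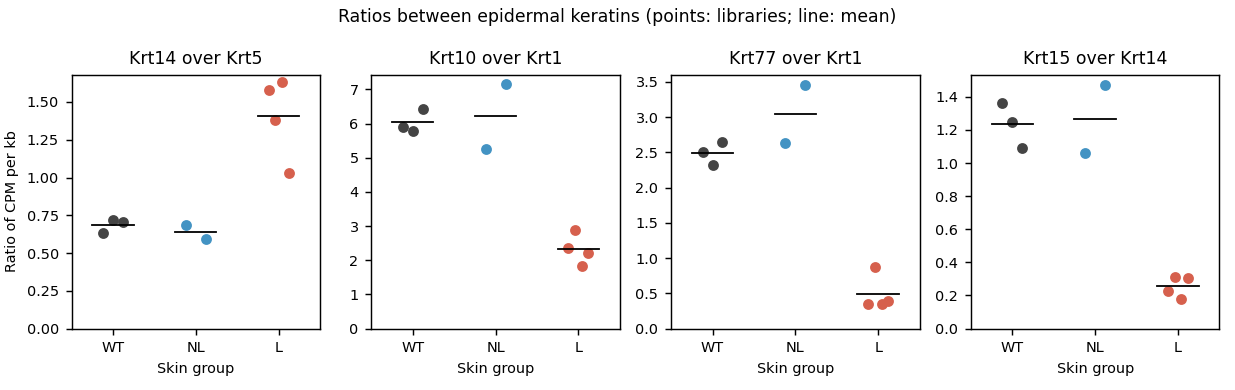
Ratios of CPM per kb between epidermal keratins in each library, with lines for group means. The L points lie apart from the WT and NL points in all 4 panels, above them for Krt14 over Krt5 and below them for the other ratios.

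Among the 16 other keratins, 13 were tested; in L over WT skin 4 rose (Krt75, Krt79, Krt90 and Krt23) and 2 fell (Krt19 and Krt222), against 23.0% of all tested genes called higher and 20.2% lower.
Krt75, the type II keratin of the companion layer between the inner and outer root sheath, was at 45.6, 26.7 and 38.9 CPM in WT, 74.5 and 74.4 in NL, and 240, 372, 404 and 637 in L skin (log2 3.48 ± 0.35, adjusted p = 0.000257).
Krt79, a keratin of the hair canal and sebaceous duct, was at 347, 434 and 321 CPM in WT, 641 and 647 in NL, and 1180, 2567, 1170 and 716 in L skin (log2 1.94 ± 0.40, adjusted p = 0.00519). For both genes the 3 groups did not overlap, in the order WT, NL, L.
Krt23, a type I keratin, was at 169, 132 and 145 CPM in WT, 241 and 255 in NL, and 257, 325, 192 and 186 in L skin (log2 0.69 ± 0.20, adjusted p = 0.0243), a call lost without WT replicate 9 or 10 (adjusted p = 0.0935 and 0.0757).
Krt90, a type II keratin, rose from 2 to 6 counts in WT to 194, 114, 212 and 480 in L skin (log2 5.78).
Krt222 was at 5.61, 3.06 and 5.66 CPM in WT, 2.54 and 3.85 in NL, and 0.82, 0.17, 0.20 and 0.68 in L skin, and fell by 3.32 ± 0.55 on the log2 scale (adjusted p = 0.00177).

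Among the simple epithelial keratins, Krt7, Krt8 and Krt18 turned on 1 control library. Krt8 and Krt18, which pair in single-layered epithelia, had 29, 20 and 423 and 5, 3 and 395 counts in WT replicates 8, 9 and 10, 7 and 8 and 4 and 1 in NL, and 94 to 343 and 109 to 398 in L skin. Neither was called in L over WT skin (Krt18 log2 0.47 ± 1.33, adjusted p = 0.799). Without WT replicate 10, Krt18, Krt8 and Krt7 rose by 5.59, 2.82 and 2.06 on the log2 scale (adjusted p = 0.00231, 0.0119 and 0.0126). Krt19, another simple keratin, had 158, 231 and 717 counts in WT, 148 and 102 in NL, and 60, 42, 66 and 72 in L skin. It fell by 2.87 ± 0.50 on the log2 scale (adjusted p = 0.00232), and by 1.90 without WT replicate 10 (adjusted p = 0.00275). Krt20, of the gut, was not called either way (log2 -0.51, and -0.61 without that library). Krt8 shares 8.4% of its 151-base windows with the pseudogene Krt8-ps, so its reads are uncertain. Among mucosal keratins, Krt4 was at 0.35 to 0.64 CPM in WT and 0.29 to 0.57 in L skin (log2 -0.17 ± 0.64, adjusted p = 0.851). Krt24 had 91, 54 and 59 counts in WT, 98 and 80 in NL, and 226, 29, 16 and 8 in L skin (log2 -0.26 ± 0.94, adjusted p = 0.843); without L replicate 4 it fell by 2.01 (adjusted p = 0.0176).

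Along the chromosomes, hair shaft and inner root sheath genes each formed a block in both clusters, while epidermal genes lay scattered between other classes. On chromosome 11, Krt25 to Krt28 (log2 7.79 to 12.73) were followed after 10.4 kb by Krt10 (0.48). Krt39, Krt40 and the block from Krt33a to Krt36 rose by 3.43 or more and ended 11.7 kb before Krt13, which was not tested, with Krt15 (log2 -0.93) next. On chromosome 15, Krt5 (0.32) lay 21.0 kb from Krt71 (13.37). Krt73 (13.13) lay 8.3 kb from Krt2 (4.23), which was called higher on overlapping libraries. The hair shaft block there began 0.7 kb from Krt7 (0.69), which was not called. At its other end, Krt82 lay 1.7 kb from Krt90 (5.78), which Krt75 (3.48) followed.

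**Figure D5:**
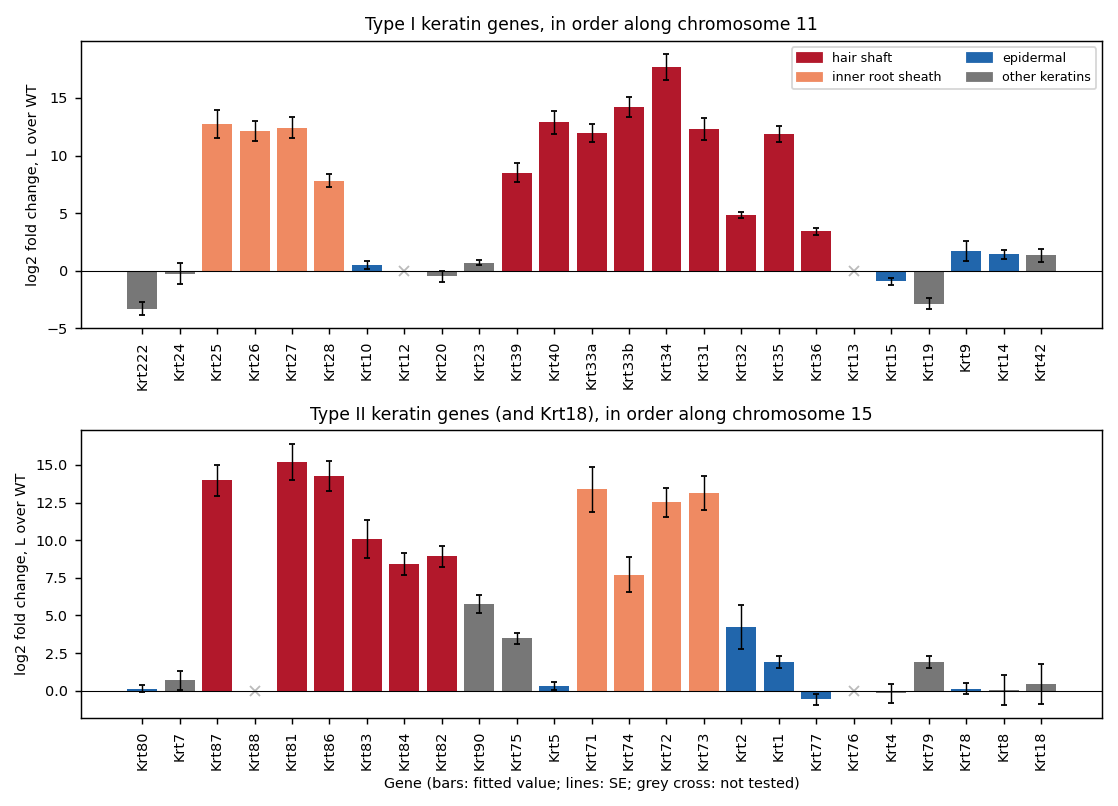
Fitted log2 fold change of L over WT skin for each keratin in gene order along the 2 clusters, coloured by class, with lines for the SE and grey crosses for genes not tested. Hair shaft and inner root sheath blocks stand at 3.43 to 17.68. Bars of genes at 0 or near 0 in WT skin depend on the prior count of the fit. Beside the sheath blocks, Krt10 and Krt5 are near 0 and Krt2 is at 4.23. Krt90, beside a hair shaft block, is at 5.78.

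The second question was whether lesional differed from nonlesional skin of the same transgenic line. All 15 tested hair shaft and all 8 inner root sheath keratins rose again, against 13.2% of all genes called higher, with median log2 fold changes of 11.28 (10.97 with lower bounds) and 11.07 beside 0.03 for all genes; this comparison shares the L libraries with the first. The limit that the filter on low counts sets on these shares holds here as well. Krt33a differed by 10.92 ± 0.91, Krt83 by 10.97 ± 1.63, Krt71 by 11.59 ± 1.72 and Krt25 by 11.08 ± 1.40 on the log2 scale (adjusted p = 0.000554, 0.00364, 0.00362 and 0.00202). Krt39 was at 0 in both NL libraries and at least 280-fold higher in L skin.
Of the 10 epidermal keratins none rose and 2 fell, against 11.8% of all genes called lower. Krt15 fell by 1.66 ± 0.36 (adjusted p = 0.0115) and Krt77 by 1.62 ± 0.40 (adjusted p = 0.0199). Both calls ended without either NL library, Krt15 at an adjusted p of 0.0583 and 0.087 and Krt77 at 0.116 and 0.0924 without NL replicates 2 and 3.
Krt14 and Krt1 had log2 fold changes of 0.68 ± 0.40 and 1.10 ± 0.44 and did not pass (adjusted p = 0.242 and 0.102), though without L replicate 7 both did (0.95 and 1.34, adjusted p = 0.00791 and 0.0207).
Of the other keratins, Krt75 rose by 2.47 ± 0.40 (adjusted p = 0.00399) and Krt90 by 5.82 ± 0.72 (adjusted p = 0.00155), and Krt222 fell by 2.74 ± 0.58 (adjusted p = 0.0111). Without NL replicate 3 the calls of Krt75 and Krt222 ended (adjusted p = 0.0503 and 0.0883). Krt79 had a log2 fold change of 1.13 ± 0.45 (adjusted p = 0.0976).

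The third question was whether transgenic skin without lesions already differed from WT skin. None of the 46 tested keratins was called, and neither was any of the 19101 genes (0%). At an unadjusted p under 0.05 there were 11 keratins and 1465 genes (7.67%), and DESeq2 called 62 genes. Even so, the epidermal keratins lay on 1 side: in 8 of 10, both NL libraries exceeded all 3 WT libraries, against 18.6% of all tested genes. Their summed level was 25984 and 23740 CPM in NL and 12430 to 15593 in WT skin.
Krt5 had a log2 fold change of 0.81 ± 0.30, Krt10 of 0.80 ± 0.40, Krt77 of 1.05 ± 0.43 and Krt14 of 0.72 ± 0.41 in NL over WT skin (adjusted p = 0.599, 0.686, 0.645 and 0.71). The ratios between them did not follow: Krt14 per Krt5 and Krt10 per Krt1 overlapped between NL and WT skin.
Each of 8 keratinocyte markers outside the keratins, such as Cdh1, Epcam and Sfn, was likewise higher in NL than in WT skin without overlap, with a summed level of 4859 and 5377 CPM in NL and 2857 to 3625 in WT skin. Their part in the keratin difference was not tested.
Hair shaft sums were 7.78 and 11.6 CPM in NL and 7.05 to 9.22 in WT skin, and overlapped. Krt32, of the cuticle, was at 5.73 and 7.50 CPM in NL and 3.51 to 5.04 in WT skin (log2 0.65 ± 0.24, adjusted p = 0.599). Krt36 was at 0.84 and 1.67 in NL and 2.14 to 2.94 in WT skin (log2 -0.99 ± 0.36, adjusted p = 0.599).

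Genes that work with these keratins were read from 4 lists, whose counts in L over WT skin stand against 23.0% of all genes called higher and 20.2% called lower, and in L over NL skin against 13.2 and 11.8%. Of 10 regulators of hair keratin genes, 8 rose in L over WT skin (median log2 2.42). They included Lef1 (7.05), a factor of Wnt signalling in hair precursor cells, Msx2 (5.31) and Hoxc13 (4.79), a direct activator of hair keratin promoters, while Trps1 (0.62) and Gata3 (0.20) were not called (adjusted p = 0.0577 and 0.326). In L over NL skin 8 of the 10 rose and 1, Gata3, fell by 0.58 (adjusted p = 0.0363).
Of 10 structural partners of shaft and sheath, 9 rose in L over WT skin (median 9.70), and 9 in L over NL skin. Among them were Tchh (9.72 over WT), the trichohyalin that binds sheath keratins, and Padi3 (9.68), which modifies it. Dsg4 (9.97), a desmosomal cadherin of the follicle, also rose. Dsg4, Padi1 and Tchhl1, near 0 in WT and NL skin, passed the filter on low counts only through the L libraries. For these genes being tested nearly fixed the direction, so the share is a description only. Selenbp1 was not called in L over WT skin (0.47, adjusted p = 0.269).
Of 12 proteins that bundle or anchor epidermal keratins, 6 rose and 2 fell in L over WT skin (median 0.41). Flg, the filaggrin precursor that bundles keratin filaments, rose by 4.26 (adjusted p = 0.000254), and the linkers Dst and Plec fell by 1.40 and 1.27 (adjusted p = 0.00445 and 0.000466). Of 9 epidermal transcription factors 6 rose in L over WT skin (median 0.76), among them Ovol1 (1.95, adjusted p = 0.000186). Grhl3 (0.575), Trp63 (0.29) and Klf4 (0.17) were not called (adjusted p = 0.0576, 0.111 and 0.555). In L over NL skin 3 of the 12 binding or anchoring genes rose and 2 fell (median -0.19). Of the 9 factors 2 rose there (median 0.21). In NL over WT skin 0 genes of the 4 lists were called.

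Markers of other tissue differed between L and WT skin as well. Skeletal muscle genes summed to 28820 to 40080 CPM in WT, 27230 and 31610 in NL and 7409, 27.4, 391 and 1604 in L replicates 4 to 7, adipocyte genes to 8967 to 13970, 7768 to 8958 and 1050 to 4970 CPM. No L library reached a WT or NL library in either sum, and 5 of 10 muscle genes and 4 of 8 adipocyte genes fell in L over WT skin. In L over NL skin 0 of 10 muscle genes and 0 of 8 adipocyte genes were called, against 11.8% of all genes called lower. All 6 melanocyte genes rose, from sums of 9.37 to 17.9 CPM in WT to 105 to 620 in L skin. Of these, Slc45a2, near 0 in WT and NL skin, passed the filter on low counts only through the L libraries. Sebocyte genes, whose glands open into the follicle, summed to 2146 to 2840 CPM in WT and 2345 to 5957 in L skin, with 3 of 8 higher and 1 lower. In L over WT skin 3 of 6 T cell genes, 3 of 5 tested neutrophil and monocyte genes and 5 of 8 keratinocyte markers rose, and 1 of 6 fibroblast genes fell, against the 23.0% of all genes called higher and 20.2% called lower. In L over NL skin 1 of 6 T cell, 3 of 5 neutrophil and monocyte and 2 of 8 keratinocyte genes rose, against 13.2% of all genes. There 0 of 6 fibroblast genes were called. The part of these tissues, and of the depth of the sampled piece, in the keratin values was not tested; body site and lesion cannot be told apart from the labels.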

How the data were processed

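RNA of 9 skin libraries (3 WT, 2 NL, 4 L) was analysed, with values of 12 lymph node libraries beside it. Per the labels, libraries were paired-end with 151-base reads. The authors trimmed reads with cutadapt 4.8, aligned them to GRCm38 with STAR 2.7.8a and estimated counts per gene with RSEM 1.3.3 (tools and versions from the submitters' processing notes); they deposited these expected counts as whole numbers, without normalization. The annotation release and whether strand was used in counting are not given in the sources used here, so reads of Krt10, Krt12, Krt32, Krt7, Krt8 and Krt80 cannot be told apart from those of opposite-strand genes that overlap them.

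The filter on low counts was edgeR 4.0.16's filterByExpr (at least 10 counts, 15 in total; 19101 genes). Libraries were scaled by TMM, and fitted over all 9 libraries by group with a robust quasi-likelihood model in R 4.3.3. Adjusted p-values are Benjamini-Hochberg values of edgeR over all tested genes, threshold 0.05. Positions came from GENCODE M21 by identifier, and transcript length is that of the longest protein-coding transcript. A group at 0 was compared through a floor of 3 counts per library. A group with some counts, but at most 3 in each library, was compared by a counting interval. Totals of 40499078 to 56511276 counts set the precision. In simulated counts for L vs WT over 19101 genes, 92% of 4-fold and 46% of 2-fold changes were recovered and 4.17% of calls were false. The keratins, their classes, the lists and the rule for genes with full statistics (the 4 most abundant of each of hair shaft, inner root sheath and epidermal, the 2 most abundant of each other class, any member called against its class, and Krt14) were chosen with earlier results of these data known, and the motifs afterwards. Alternatives were DESeq2 1.42.0, other scalings, filters, thresholds and leaving out each library.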

Additional observations from a re-analysis of the deposited data

Results flagged for a closer look

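In 4 keratins, 1 of the 4 L libraries stood further from the others than Dixon's 95% limit of 0.829 (gap over range); chance alone marks about 1 group in 20, and 50 keratins were examined. Krt2, a keratin of ear, tail and foot epidermis, had a gap over range of 0.925, with 1787 counts in L replicate 4 and 25, 77 and 167 in the others. Krt13, a keratin of the oral mucosa, had 0.924, with 13 counts in the same library and 0, 0 and 1 in the others. Krt24 had 0.856, with 226 counts there and 29, 16 and 8 elsewhere. Krt84, a hair shaft keratin also made in tongue papillae, had 0.838, with 74.9 CPM in L replicate 5 and 22.8 to 31.2 in the others. L replicate 4 was also the L library with most muscle gene counts (7409 CPM) and the lowest hair shaft and inner root sheath sums. The labels give no body site.

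In inguinal lymph nodes, which lie outside the skin comparison, Krt83 was present in all 3 libraries of WT mice given UVB, with a lowest count of 7, and at 6, 1 and 3 counts in the untreated WT libraries. It was also present in all 6 TG libraries, at 11, 6 and 5 counts untreated and 3, 2 and 12 after UVB, so that the untreated TG and UVB-treated WT ranges overlapped. No difference was tested.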

How the results depend on the processing

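In L over WT and L over NL skin, 15 hair shaft keratins were called higher under all 8 alternatives that kept every library and without any single library; inner root sheath calls were 8 of 8, with 7 in L over NL skin at an adjusted p under 0.01 and without either NL library. Keratin calls in NL over WT skin were 0 throughout. The smaller epidermal and other counts moved. In L over WT skin, epidermal calls higher were 0 when a log2 change above 1 was asked for (the fold test), 1 at an adjusted p under 0.01 and 1 to 4 without single libraries, epidermal calls lower were 0 under both of these, without a filter on low counts and with only the compared groups, and 0 to 1 without single libraries, and other keratins called higher were 2 in the fold test and 3 to 6 without single libraries. In L over NL skin, epidermal calls higher were 2 with DESeq2 and 0 to 2 without single libraries, and epidermal calls lower 0 in the fold test and at 0.01, 1 with only the compared groups and 0 to 3 without single libraries. Other keratins called higher were 5 with DESeq2 and with only the compared groups and 1 to 5 without single libraries, and those called lower 0 in the fold test and at 0.01, 2 with only the compared groups and 0 to 2 without single libraries. With library sizes that leave out keratin and keratin-associated genes, other keratins summed to 616.7 CPM in WT and 1009 in NL skin. The fold test and the stricter threshold ask for more by construction; for the rest the cause was not tested.

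Signs turned for genes that were not called. Krt4 in NL over WT skin had log2 0 with DESeq2 and -0.003 with those library sizes, and -2.35 to 0.84 without single libraries. Without single libraries, Krt18 ranged from -0.12 to 5.59, Krt24 from -2.01 to 0.12 and Krt4 from -0.38 to 0.013 in L over WT skin, and Krt23 from -0.23 to 0.059 and Krt4 from -1.02 to 2.18 in L over NL skin. In NL over WT skin Krt83 ranged from -2.34 to 0.85, Krt81 from -2.81 to 5.11, Krt71 from -0.068 to 2.99, Krt25 from -0.86 to 2.54 and Krt73 from -1.63 to 2.90. Over all genes DESeq2 called 62 in NL over WT skin and edgeR 0, and with only the compared groups 1. No paired analysis was possible because the labels name no mouse for a library. If L and NL pieces came from the same mice, the p-values of L over NL skin ignore that pairing. NL skin rests on 2 libraries, so a lone library there is assumed to vary like the other groups.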

Other observations

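Libraries of inguinal lymph nodes, a tissue without epidermis, from both genotypes with or without UVB give the level of these genes outside skin. Keratins held 82 to 207 counts in each of the 12 libraries, 0.000264 to 0.000706% of the total, and inner root sheath keratins 0 to 2 counts. Krt10, at 33 to 77 counts, Krt222, at 18 to 55, and Krt80, at 6 to 22, exceeded 3 counts in all 12 libraries. Krt14 and Krt5 did not exceed 1 and 2 counts. In 1 library of TG mice given UVB, replicate 11, Krt7 and Krt8 had 54 and 68 counts, against at most 4 in each of the other 11 libraries.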
